A study of Mus musculus with 6 samples.

Results

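Col2a1, Sox9 and Lpl are genes used to mark the cartilage and fat lineages, and their signals were measured in mouse embryonic fibroblasts with and without cyclophilin D. The probes were found by gene symbol: every probe whose single symbol in the array annotation was Col2a1, Sox9 or Lpl was taken, which gave 6 probes of the 10653 that carry 1 symbol and of the 45281 on the array. Col2a1 had 3 probes, Sox9 had 2 and Lpl had 1, and all 6 passed the filter on dim probes. The genes themselves were selected on their measured difference between knockout and wild-type arrays in these data, so that difference is given below as a description, without a test.

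The cells were of 2 groups with 3 Illumina bead arrays each: CypD knockout fibroblasts (arrays A, B and C) and wild-type fibroblasts (arrays A, B and C). CypD, cyclophilin D, is a prolyl isomerase of the mitochondrial matrix, encoded by Ppif. Both groups had a C57BL/6 background and were grown from E13.5 embryos in the same serum-containing medium, with no treatment named. Embryonic fibroblasts are a mixed mesenchymal outgrowth, and nothing in the labels ties the letters to separate embryos, litters or dishes, so a p-value here rests on the scatter among arrays alone, part or all of which may be technical. Because each array holds bulk RNA, a change in the number of cells of a type and a change in RNA per cell cannot be told apart.

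Sox9 is a transcription factor of the HMG-box family that starts and maintains the cartilage programme, and Col2a1, which encodes the chain of type II collagen, is its best known direct target in chondrocytes. Lpl encodes lipoprotein lipase, the secreted enzyme that frees fatty acids from triglycerides in lipoproteins; it appears early when preadipocytes become fat cells, and muscle cells and macrophages make it as well. Fibroblast-like mesenchymal cells can be driven into either lineage, with Sox9 also known to restrain fat cell formation.

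Values below are log2 intensities after background correction and quantile normalization, which gives the arrays a common distribution. Median deposited intensities ran from 226 to 229 on the knockout arrays and from 223 to 251 on the wild-type arrays. Normalized signals of all probes correlated at 0.992 to 0.994 between arrays of a group and at 0.984 to 0.986 between groups. Ppif, the targeted gene, read 12.25, 12.35 and 12.18 on knockout arrays, against 13.57, 13.70 and 13.62 on wild-type arrays, and whether its 1 named probe lies within the deleted stretch is unknown here; a probe outside it checks nothing.

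Col2a1 was brighter on every knockout array by all of its probes. The brightest probe had deposited intensities of 3503, 2759 and 3423 on knockout arrays A, B and C, against 869, 716 and 722 on the wild-type arrays. After normalization this probe read 11.77, 11.45 and 11.72 in knockout and 9.48, 9.25 and 9.36 in wild type. The groups did not overlap, and the lowest knockout array stood 1.97 above the highest wild-type array on the log2 scale. The group means were 11.65 ± 0.17 in knockout and 9.36 ± 0.11 in wild type (SD, n = 3 each), a log2 difference of 2.28 ± 0.098 (SE), or 4.87-fold. Each SE here and below is the moderated one from limma, which draws on the variance of all tested probes and not only on the SDs shown.

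The other Col2a1 probes gave the same direction with smaller sizes. The second probe read 11.07, 10.85 and 10.98 in knockout, against 8.81, 8.80 and 8.95 in wild type, a log2 difference of 2.11 ± 0.088 (SE). The dimmest read 10.53, 10.43 and 10.38 in knockout, against 8.53, 8.53 and 8.62 in wild type, a log2 difference of 1.88 ± 0.085 (SE). The 3 probes thus ranged from 3.69-fold to 4.87-fold in the order of their brightness. All are annotated to the same Col2a1 transcript. In wild type the collagen probe signals were not at the bottom of the array: the brightest stood at the 78.5th to 79.9th percentile of all probes, and in knockout at the 90.1st to 91.6th.

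Sox9 was already bright in wild-type fibroblasts and was brighter in the knockout cells. Its brighter probe had deposited intensities of 13464, 11899 and 11816 on knockout arrays, against 7283, 6210 and 5375 on wild-type arrays. The normalized values were 13.74, 13.60 and 13.57 in knockout and 12.69, 12.56 and 12.37 in wild type, so the groups did not overlap and lay 0.88 apart at their nearest arrays. The means were 13.64 ± 0.093 in knockout and 12.54 ± 0.16 in wild type (SD, n = 3 each), a log2 difference of 1.10 ± 0.081 (SE), or 2.14-fold. In percentile of all probes this signal was at 97.5 to 97.9 in knockout and at 94.0 to 95.2 in wild type.

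The second Sox9 probe was much dimmer but gave nearly the same size of difference. It read 10.29, 10.21 and 10.08 in knockout, against 9.29, 9.14 and 8.80 in wild type, with a log2 difference of 1.12 ± 0.12 (SE), or 2.17-fold. Both probes placed array A highest and array C lowest within each group. The spread among wild-type arrays was wider at this probe, with an SD of 0.25 in wild type against 0.11 in knockout.

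Lpl was higher in knockout cells, against a signal among the dim probes in wild type. Its only probe had deposited intensities of 642, 610 and 588 on knockout arrays, against 214, 230 and 228 on wild-type arrays. The normalized values were 9.11, 9.08 and 8.96 in knockout and 6.70, 7.02 and 7.16 in wild type, with the groups 1.80 apart at their nearest arrays. The means were 9.05 ± 0.080 in knockout and 6.96 ± 0.24 in wild type (SD, n = 3 each), a log2 difference of 2.09 ± 0.12 (SE), or 4.26-fold.

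The size of the Lpl difference depended on how background was treated, since its wild-type signal stood at the 25.8th to 52.0th percentile of all probes, where expression and background are not separated in files without detection values. The deposited intensities themselves averaged 613 in knockout and 224 in wild type, a ratio of 2.74. Without background correction the log2 difference was 1.51, and with a smaller offset in the correction it was 2.46, or 5.51-fold. The knockout signal stood at the 76.7th to 77.6th percentile.

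Across the 6 probes, each knockout array lay above each wild-type array. The same held for 27.1% of the 10651 named probes tested, and because the genes were chosen for this difference nothing is read from the comparison. Named probes are those of the authors' processed table, each with a highest value at least 1.20 times its lowest, so this share does not stand for the whole array. The plot of the member probes shows the arrays one by one.

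**Figure D1:**
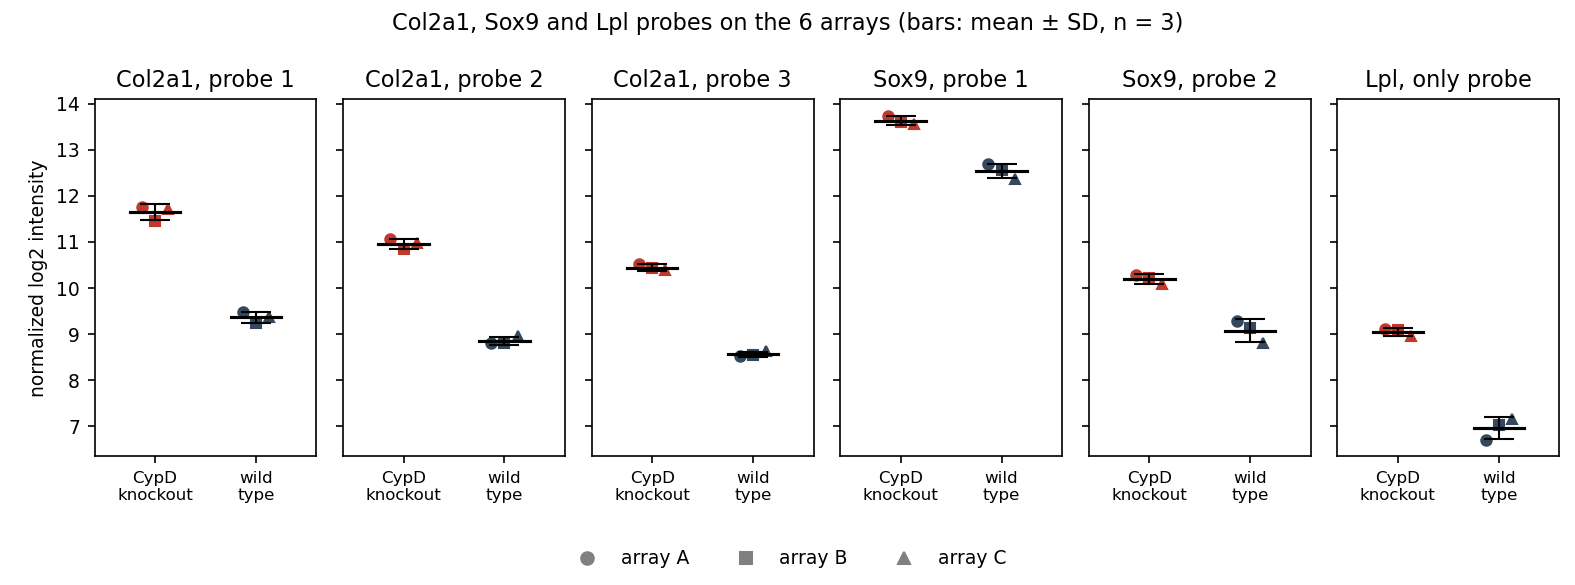
Normalized log2 intensity (vertical axis) of each Col2a1, Sox9 and Lpl probe on the 3 CypD knockout arrays (red) and the 3 wild-type arrays (dark), with the marker shape giving the array letter and bars giving mean ± SD (n = 3). In all 6 panels the knockout arrays lie above the wild-type arrays, by 0.79 at least (second Sox9 probe) and 1.97 at most (first Col2a1 probe) between nearest arrays.

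Genes that share the work of type II collagen, Sox9 or lipoprotein lipase were next counted from lists of known partners, which were written with earlier results of these data known. A gene was represented by its brightest tested probe and called changed at a limma adjusted p under 0.05. The background for these counts is high: of the 7605 genes with a named tested probe 43.6% changed, 21.8% upward and 21.8% downward, and their median log2 difference was 0.01. Only probes of the authors' processed table carry a symbol, and each of these had a highest value at least 1.20 times its lowest. The 43.6% is therefore a share among probes already picked for varying between arrays. Of all 27168 tested probes, with or without a symbol, 5423 changed. How many members of a list had a value differed between lists, and nothing is said about those without one.

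Of 23 cartilage matrix genes only 2 had a value, and both fell in knockout cells. Both passed the filter on dim probes through their wild-type signal, so a fall was the only change that could be called for them, and their direction is not set against that of Col2a1. Col9a3, a chain of the type IX collagen that coats type II fibrils, read 6.57, 6.98 and 6.78 in knockout, against 8.08, 8.10 and 7.93 in wild type (log2 difference -1.26 ± 0.12 SE, limma adjusted p = 3.35e-06). Col10a1, the collagen of hypertrophic cartilage, read 6.97, 6.54 and 6.81 in knockout, against 7.47, 7.48 and 7.61 in wild type (-0.74 ± 0.12 SE, limma adjusted p = 0.000588). Both signals were dim, near the 31st percentile of all probes in knockout and below the 70th in wild type, and a filter at the 70th percentile removed both genes. Aggrecan (Acan), Comp, the matrilins and Hapln1, which define cartilage matrix further, were not analysed here. Col2a1 and Sox9 are therefore described as genes, and no lineage is assigned to the cells.

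Regulators of cartilage formation changed in both directions. Of the 14 with a value 3 rose, 5 fell and 6 missed the threshold, so 8 changed. The list median was a log2 difference of -0.12. Creb3l2, a transcription factor through which Sox9 raises the secretory machinery of chondrocytes, rose by 0.45 ± 0.081 (SE, limma adjusted p = 0.00103) (9.67, 9.73 and 9.72 in knockout, against 9.26, 9.24 and 9.27 in wild type). Prrx1, a homeobox gene of limb mesenchyme, rose by 0.56 ± 0.11 (SE, limma adjusted p = 0.00186), with 0.60, 0.49 and 0.72 at its other 3 probes. Wwp2, a ubiquitin ligase that acts with Sox9 in mouse cartilage, rose by 0.27 (limma adjusted p = 0.0142), a call that was lost without knockout A, knockout B or wild type B (adjusted p = 0.0532, 0.0679 and 0.0547).

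The 5 regulators that fell included parts of the BMP pathway, which induces Sox9 during condensation of cartilage. Bmpr1b, a type I BMP receptor of condensing cartilage, was 1.54-fold lower (limma adjusted p = 0.000662) and the ligand gene Bmp4 was 1.41-fold lower (limma adjusted p = 0.00148). The BMP antagonist Grem1 fell as well, by 0.62 ± 0.14 on the log2 scale. Trps1, a repressor of growth plate cartilage, read 11.04, 11.05 and 10.95 in knockout, against 12.08, 11.77 and 11.31 in wild type, and its other probes gave log2 differences of -0.94 and -0.95. Ccn2, a matricellular protein, was among the brightest probes in both groups and fell by 0.24 ± 0.048 (SE). Without the intensity trend that probe did not pass (adjusted p = 0.0587), while the other Ccn2 probe gave -0.42 with the trend (limma adjusted p = 1.71e-05). Bmpr1a (0.16 ± 0.072 SE) and Twist1 (-0.24 ± 0.082 SE) did not pass, although Twist1 passed in 4 alternatives, among them without wild type A (adjusted p = 0.0401). Sox5, the partner of Sox9 at cartilage enhancers, had a log2 difference of 0.25 ± 0.13 (SE, limma adjusted p = 0.235); it is named after its values were seen.

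Among other Sox genes, 2 of 5 tested members rose and 0 fell. Sox11, which acts in mesenchymal and neural progenitors, read 12.63, 12.67 and 12.62 in knockout, against 12.09, 12.04 and 12.14 in wild type (log2 difference 0.55 ± 0.062 SE, limma adjusted p = 1.89e-05). Sox12, of the same SoxC group, rose by 0.43 ± 0.081 (SE), while its second probe did not pass (0.26, adjusted p = 0.148). Sox4, of the SoxC group as well, had a log2 difference of 0.22 ± 0.084 (SE, limma adjusted p = 0.0947) and passed without wild type C (adjusted p = 0.0256); a second Sox4 probe gave -0.23. Sox7 (-0.080) did not pass either. Sox8, the only close relative of Sox9 with a value, was dim in both groups at 7.78 ± 0.22 in knockout and 7.88 ± 0.21 in wild type (SD, n = 3 each) and did not pass.

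Enzymes that modify, fold and cut collagen chains were split, with 5 rises and 6 falls among 18 with a value and 7 short of the threshold, at a median log2 difference of 0.14. P3h3, of the prolyl 3-hydroxylase family, showed the largest rise of the list at 2.07-fold, with 9.57, 9.55 and 9.52 in knockout, against 8.32, 8.57 and 8.59 in wild type (limma adjusted p = 2.22e-06). Plod3, a lysyl hydroxylase and glycosyltransferase of collagen, rose 1.30-fold (limma adjusted p = 0.000119). The other rises were those of Pcolce, Ppib and Serpinh1. Serpinh1, the collagen chaperone Hsp47, had a log2 difference of 0.22 ± 0.073 (SE) that was at the edge of the threshold (limma adjusted p = 0.049), and 9 of 16 alternatives ended the call.

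The strongest fall in that list was of Pcolce2, an enhancer of procollagen C-propeptide removal, at 11.36, 11.38 and 11.37 in knockout, against 12.20, 12.34 and 12.37 in wild type (log2 difference -0.93 ± 0.070 SE, limma adjusted p = 2.91e-07). Its second probe fell by 1.63. P4ha2, a subunit of prolyl 4-hydroxylase, was 1.34-fold lower by its brightest probe (limma adjusted p = 0.000292). Lox, Loxl4, Plod1 and Crtap, named after their values were seen, made up the other falls. The Crtap call was lost in 6 and the Plod1 call in 4 of 16 alternatives. A second Crtap probe did not pass (limma adjusted p = 0.104), nor did the other Loxl4 probes (limma adjusted p = 0.316 and 0.0552). Loxl1, a crosslinking oxidase, and Bmp1, the procollagen C-proteinase, had log2 differences of 0.15 ± 0.063 and -0.17 ± 0.090 (SE) and did not pass. Of the main fibrillar chains of fibroblasts, Col1a1 was 1.55-fold lower and Col1a2 1.28-fold lower, though the Col1a2 call was lost without knockout B or wild type A (adjusted p = 0.0674 and 0.0511), and Col3a1 was 2.19-fold higher.

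Transcription factors that drive fat cell formation changed in both directions. Of 10 with a value, 4 rose and 3 fell, while Rxra, Cebpd and Cited2 did not pass, with a median log2 difference of 0.14. Ebf2, which marks committed preadipocytes, rose 2.12-fold, with 8.21, 8.10 and 8.30 in knockout, against 7.13, 7.18 and 7.06 in wild type (limma adjusted p = 2.91e-06), with a log2 difference of 1.20 at its second probe. The wild-type Ebf2 signal was dim, at a mean percentile of 50.5. Pparg, the master regulator of adipocytes, read 10.53, 10.45 and 10.56 in knockout, against 10.08, 10.09 and 10.37 in wild type, a log2 difference of 0.34 ± 0.093 (SE, limma adjusted p = 0.0197); it is named after its values were seen. That call was lost without knockout A, knockout C, wild type A or wild type B (adjusted p from 0.0602 to 0.0916), and the second Pparg probe did not pass (0.32, adjusted p = 0.0905).

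Klf4 and Srebf1 rose by 0.37 and 0.33, and Klf5, Ebf1 and Stat5a fell, with log2 differences of -0.36, -0.37 and -0.51. Klf4 was lost without knockout C (adjusted p = 0.0556), and Klf5 without knockout A, knockout C or wild type A (adjusted p = 0.0674, 0.0807 and 0.0793). Ebf1 and Srebf1 were each lost in several fits that left out an array, and second probes of Klf4 and Stat5a did not pass. Cebpd, an early adipogenic factor, had a log2 difference of 0.21 ± 0.073 (SE) and did not pass (limma adjusted p = 0.0631), but did without knockout B (adjusted p = 0.0375). Cited2, a transcriptional coactivator, had -0.17 ± 0.058 (SE) and passed without wild type A (adjusted p = 0.0437). In total the list held 4 changed members without knockout A, 2 without knockout C and 4 without wild type A, against 7 with all arrays.

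Factors known to hold back fat cell formation changed in both directions. Among 17 with a value there were 10 rises and 6 falls, against the 43.6% of genes with a named tested probe that changed, and the median log2 difference was 0.36. Dlk1, the preadipocyte factor whose loss accompanies differentiation, read 15.07, 14.97 and 15.01 in knockout, against 11.99, 11.88 and 12.18 in wild type, which is 8.02-fold (limma adjusted p = 3.73e-12). Nr2f2 (COUP-TFII), a nuclear receptor of mesenchyme, rose 3.09-fold, with 10.01, 9.98 and 10.44 in knockout, against 8.60, 8.37 and 8.57 in wild type. Gata2 and Gata3, zinc finger factors that repress Pparg in preadipocytes, rose 1.61-fold and 1.89-fold. Foxo1 was 2.05-fold lower (limma adjusted p = 1.08e-06), with a log2 difference of -0.45 at its second probe. Klf2, Tgfb1 and Hes1 fell as well, though the Hes1 call was lost in 4 of 16 alternatives. Gata2, Gata3, Foxo1, Klf2, Tgfb1, Hes1 and, below, Wnt10a are named after their values were seen.

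The Wnt ligands of that list fell in part. Wnt10b, which keeps preadipocytes undifferentiated, read 7.63, 7.75 and 7.78 in knockout, against 9.70, 9.66 and 9.87 in wild type, 4.07-fold lower (limma adjusted p = 2.58e-09). Wnt5a, a ligand of the noncanonical branch, was 6.01-fold lower, at 9.14, 9.29 and 9.19 in knockout, against 11.91, 11.75 and 11.72 in wild type. Wnt10a went the other way and rose 1.51-fold. The probes of Id2, a helix-loop-helix inhibitor counted among the rises, disagreed: the brightest gave 0.29, another 0.37 and a further one -0.75, each past the threshold. Wwtr1 (TAZ), which restrains Pparg, had a log2 difference of -0.14 ± 0.068 (SE) and did not pass, except with median scaling (adjusted p = 0.0437).

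Genes of lipid storage in fat cells changed in both directions. Of 11 with a value 3 rose and 4 fell, with a median log2 difference of -0.20. Bscl2, which encodes seipin of the lipid droplet, rose 1.65-fold, with 12.68, 12.87 and 12.70 in knockout, against 12.00, 11.95 and 12.13 in wild type (limma adjusted p = 6.33e-06). Scd1, the stearoyl-CoA desaturase, rose 1.28-fold. Lpin1, a phosphatidate phosphatase, rose 1.37-fold, while its second probe did not pass (0.25, limma adjusted p = 0.098). Dgat2, which makes triglyceride, was 1.46-fold lower, at 9.06, 9.15 and 9.02 in knockout, against 9.53, 9.48 and 9.84 in wild type (limma adjusted p = 0.00187).

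The triglyceride lipase gene Pnpla2 (ATGL) fell by 0.33 on the log2 scale, a call lost without wild type A (adjusted p = 0.0506). Abhd5, its activator, fell by 0.26, a call lost without any 1 knockout array or wild type A (adjusted p from 0.0657 to 0.0998) and without the intensity trend (adjusted p = 0.053). Mgll, the monoglyceride lipase, was dim and fell by 0.95 with a brightest probe that changed between fits; the other probe missed the threshold (-0.40, adjusted p = 0.0594), as did Mgll without knockout B or any 1 wild-type array (adjusted p from 0.0812 to 0.259). Agpat2 and Dgat1, enzymes of triglyceride synthesis, had log2 differences of -0.22 and -0.015, the lipase gene Lipe -0.13 and the transporter gene Slc27a1 -0.20, and none of these 4 passed, although another Agpat2 probe did (-0.39, adjusted p = 0.0106). Without wild type A the list held 4 changed members, against 7 with all arrays. Fabp4, Adipoq and Plin1, the defining genes of mature adipocytes, were not analysed here.

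**Figure D2:**
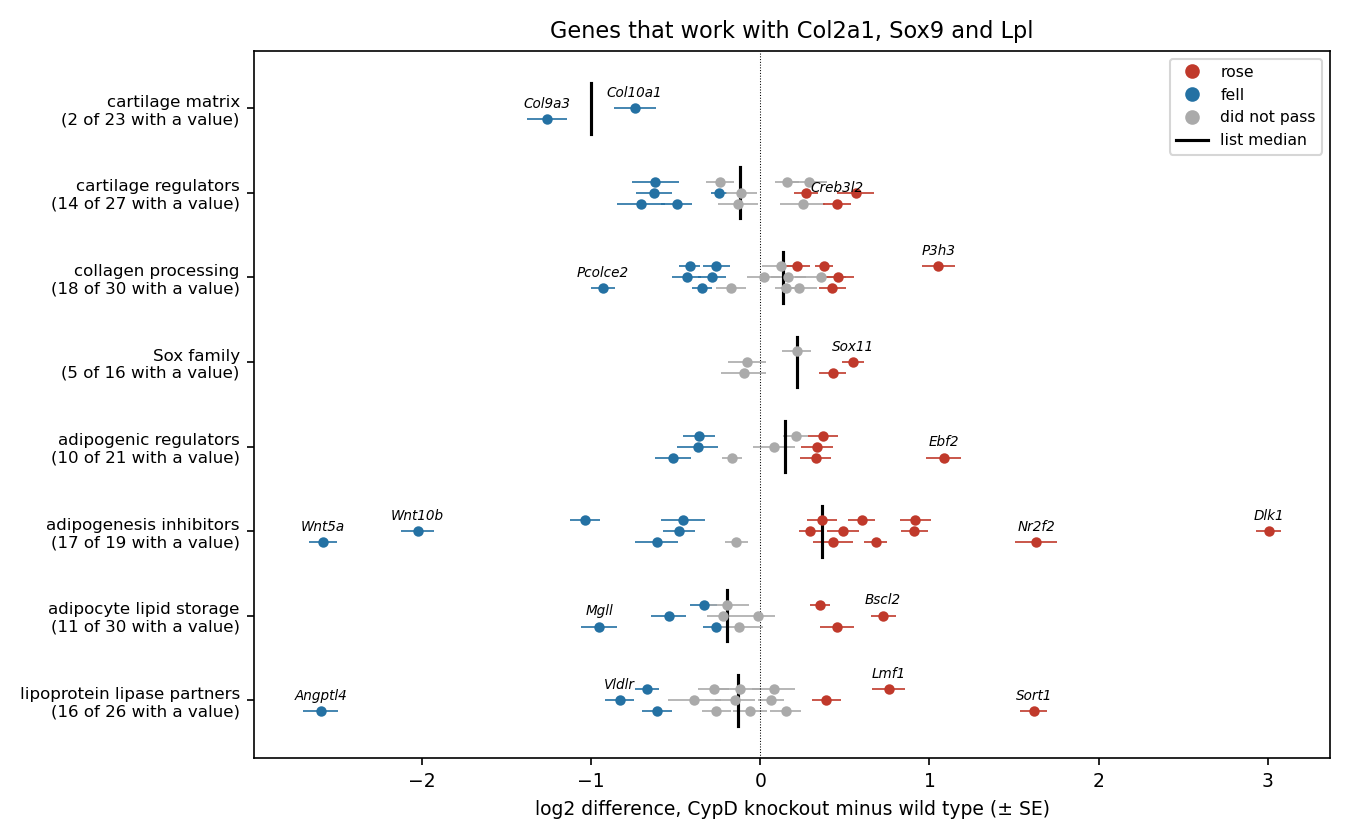
Log2 difference, CypD knockout minus wild type (horizontal axis, bars are SE from limma), for each tested member of 8 lists of genes that work with Col2a1, Sox9 or Lpl, coloured by whether the gene rose, fell or did not pass, with the list median as a black line. The highest list median is 0.36 (adipogenesis inhibitors), and each list with more than 5 tested genes holds both rises and falls. The 2 cartilage matrix genes lie below 0, but both passed the filter on dim probes through their wild-type signal, so only a fall could be called.

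Genes for proteins that mature, carry, anchor or inhibit lipoprotein lipase changed at a share near that of all genes with a named tested probe. Of 16 with a value 3 rose, 4 fell and 9 stayed short of the threshold, with a median log2 difference of -0.13. The inhibitor Angptl4, which inactivates the enzyme by unfolding it, read 7.64, 7.57 and 7.89 in knockout, against 10.20, 10.31 and 10.38 in wild type. This was 6.05-fold lower (log2 difference -2.60 ± 0.10 SE, limma adjusted p = 4.37e-10), with no overlap between groups, and the knockout signal lay among the dim probes at the 65.8th percentile.

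The 3 partners that rose were Lmf1, Sort1 and Lrp1. Lmf1, the endoplasmic reticulum factor needed for the lipase to fold, read 9.78, 9.76 and 9.75 in knockout, against 8.94, 8.88 and 9.20 in wild type, a rise of 1.69-fold (limma adjusted p = 5.75e-05). Sort1, the sorting receptor sortilin, read 11.39, 11.35 and 11.36 in knockout, against 9.84, 9.64 and 9.77 in wild type, a rise of 3.07-fold (limma adjusted p = 3.81e-09); a second probe gave 1.58 and another stayed below the threshold (0.23, adjusted p = 0.145). Lrp1, an endocytic receptor for lipase-bound remnants, rose by 0.39 ± 0.086 (SE, limma adjusted p = 0.00496).

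The falls beside Angptl4 were of Vldlr, Sdc2 and Sdc3. Vldlr, a receptor for triglyceride-rich lipoproteins, read 9.68, 9.69 and 9.58 in knockout, against 10.46, 10.59 and 10.39 in wild type (log2 difference -0.83 ± 0.085 SE, limma adjusted p = 6.39e-06), with -0.78 and -0.81 at its other probes. Sdc2 and Sdc3, core proteins of heparan sulfate proteoglycans to which the lipase binds, were 1.59-fold and 1.53-fold lower. Sdc4, another syndecan, had a log2 difference of -0.28 ± 0.093 (SE, limma adjusted p = 0.0527) and passed in 5 alternatives, among them without knockout C (adjusted p = 0.031) and without wild type B (adjusted p = 0.0486). Furin, the protease that cleaves the lipase, had 0.063 ± 0.076 (SE) and did not pass. Gpihbp1, which carries the lipase across endothelium, was not analysed here.

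**Figure D3:**
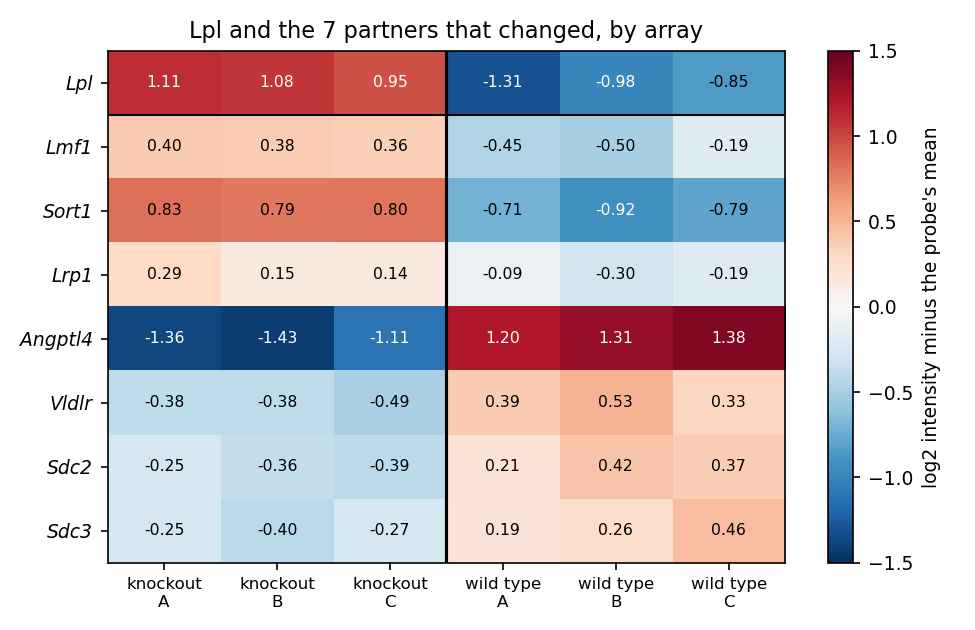
Log2 intensity of Lpl and of the 7 partner genes that passed the test, after subtracting each probe's mean over the 6 arrays, with knockout arrays left of wild-type arrays (colour and printed value in log2 units). Lpl, Lmf1, Sort1 and Lrp1 are above their mean on each knockout array, and Angptl4, Vldlr, Sdc2 and Sdc3 are below it on each knockout array. All were drawn because of their group difference, so this agreement between arrays follows from the choice. The 9 partners that did not pass are not drawn.

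The genes whose profile over the 6 arrays was most like each marker were found by the root-mean-square difference of log2 intensities after centring each probe, so that both the size of the group difference and the small deviations of arrays count; this names genes and carries no test, and for Lpl it rests on a difference whose size depends on the treatment of background. Nearest to Col2a1 were Vdr, the vitamin D receptor (0.075), the growth factor gene Hgf (0.0829), the gelatinase gene Mmp2 (0.0965) and Rtl6 (0.102). Nearest to Lpl were Dusp4, a MAP kinase phosphatase (0.0694), Mtcl1, a microtubule crosslinker (0.115), Serpinf1, the secreted factor PEDF (0.118), and Crabp1, a binding protein of retinoic acid (0.124). Nearest to Sox9 were 1500009L16Rik (0.0689), Prxl2a (0.0768), Fam117a (0.0769) and 9130024F11Rik (0.0816). Between the markers themselves the difference was 0.242 for Col2a1 and Lpl, 0.545 for Sox9 and Lpl and 0.605 for Col2a1 and Sox9, so Col2a1 and its regulator Sox9 were the least alike pair, with the smaller log2 difference at Sox9.

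The genes beside each marker on its chromosome were also read. Col2a1 lies on chromosome 15, Sox9 on 11 and Lpl on 8 of mouse assembly GRCm38.p6, and 10 protein-coding genes on each side were taken. Of 8 neighbours of Col2a1 with a value, 2 rose and 2 fell, beside 43.6% changed among all genes with a named tested probe. The same share stands beside the counts for Sox9 and Lpl below, and a local effect was not tested. Vdr, the nearest profile above, is also a neighbour, with 1 protein-coding gene between it and Col2a1, and read 10.49, 10.39 and 10.65 in knockout, against 8.33, 8.08 and 8.18 in wild type, a log2 difference of 2.31 ± 0.099 (SE), with 1.17 and 2.14 at its other probes. Senp1 and Pfkm, on the other side of Col2a1, had log2 differences of -0.14 and -0.089 and did not pass, nor did Rpap3 (-0.16) and Slc38a4 (0.28). Farther along, Amigo2, dim in wild type at 7.23, rose by 3.15, or by 2.54 to 3.49 over the alternatives. Slc48a1, a haem transporter, fell by 1.30, and Asb8 fell by 0.21, a call lost without knockout B, knockout C or wild type B (adjusted p from 0.0634 to 0.0833).

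Around Sox9, 10 neighbours had a value, of which 1 rose and 1 fell. The fall was of Abca5 (-0.54 ± 0.086 SE, limma adjusted p = 0.000435), and the rise of Cdc42ep4 was lost in 8 of 16 alternatives, leaving 1 changed neighbour without knockout A, B or C or wild type A. Slc39a11 and Kcnj2, the nearest tested neighbours, gave 0.039 and 0.15. Of 6 neighbours of Lpl with a value, Zfp930 and D130040H23Rik rose by 0.77 and 0.98 and Nat2 fell by 0.48, while Csgalnact1 (-0.25), Atp6v1b2 (0.15) and Zfp868 (-0.21) did not pass. D130040H23Rik was dim in wild type, with a mean of 6.79, and passed the filter on dim probes through its knockout signal. A rise was therefore the only change that could be called for it.

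**Figure D4:**
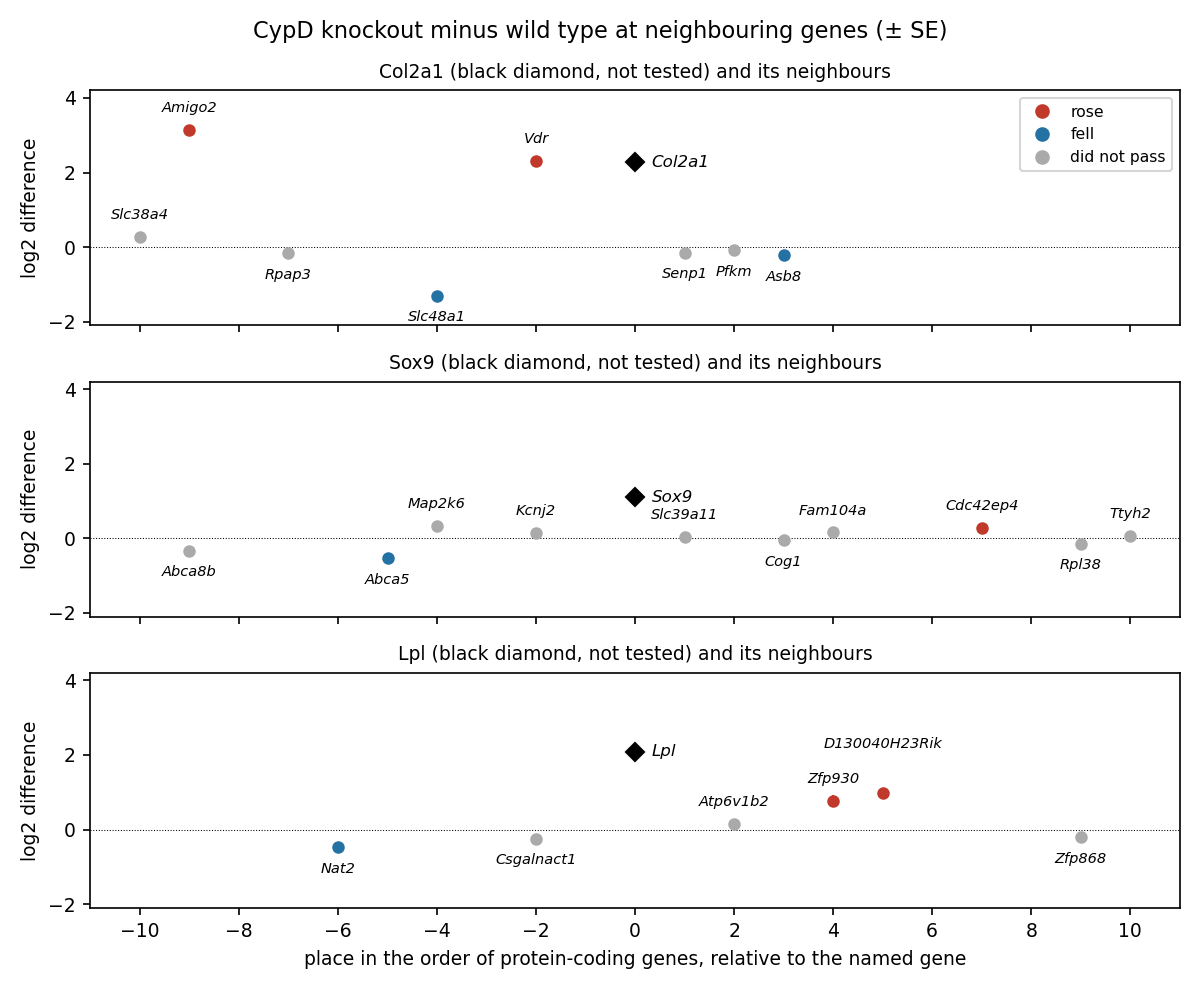
Log2 difference, CypD knockout minus wild type (vertical axis, SE bars mostly within the markers), for tested genes by their place in the order of protein-coding genes around Col2a1, Sox9 and Lpl, which are drawn as black diamonds. Vdr (2.31) and Amigo2 (3.15) stand high near Col2a1, whereas all tested neighbours of Sox9 lie between -0.54 and 0.33.

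Markers of other cell types were read beside these results, and their part in the results was not tested. Of the fibroblast list 13 of 17 genes had a value; Col1a1 stood at the 97.0th percentile in knockout and the 98.3rd in wild type, while the only Vim probe was dim in both groups and Thy1, Lum and Postn were not analysed here. In that list Pdgfra, Pdgfrb, Col3a1, Fbln1 and Twist2 rose, Col1a1, Col1a2, S100a4 and Dcn fell, and Col5a1, Vim, Fn1 and Fbln2 did not pass; its summed intensity was 82756 to 89742 in knockout, against 88030 to 92166 in wild type. Pdgfra, a receptor of mesenchymal progenitors, was 2.76-fold higher and S100a4 3.08-fold lower.

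Osteoblast, tendon and muscle lists held few values. Of 17 osteoblast markers 3 were tested: Tnfrsf11b (osteoprotegerin) rose 2.80-fold, Omd fell by 0.42 and Phex did not pass, with summed intensities of 2187 to 2230 in knockout and 1088 to 1252 in wild type. The higher sum in knockout came from Tnfrsf11b alone, the brightest of the 3 (mean 10.76 in knockout and 9.27 in wild type). Of 5 tendon markers 2 were tested, and Mkx rose 2.57-fold while Scx was 2.33-fold lower, with sums of 1477 to 1578 in knockout and 1937 to 2347 in wild type. Of 12 skeletal muscle markers 2 were tested, and Acta1 fell by 0.79 while Myl4 did not pass, with sums of 584 to 635 in knockout and 577 to 705 in wild type.

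Macrophages make Lpl, and of 17 macrophage markers 2 had a value. Cd14 and Coro1a did not pass with all arrays, with log2 differences of -0.25 and 0.30; at an unadjusted p under 0.05 both would count, and each passed in single alternatives, Cd14 without wild type B (adjusted p = 0.0462) and Coro1a without wild type C (adjusted p = 0.00696). Their summed intensity was 879 to 902 in knockout and 864 to 1066 in wild type. Neural crest cells make Sox9, and of 12 markers of that origin 2 had a value. Tfap2a was 6.40-fold lower, and Tfap2b, dim in wild type, rose by 0.45, a call lost without wild type B (adjusted p = 0.0701). The sums were 467 to 527 in knockout and 1854 to 2186 in wild type, and the lower sum in knockout came from Tfap2a alone.

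Alternative fits gave a value 15 times for Col2a1 and Sox9 and 14 times for Lpl, which a filter at the 70th percentile removed. Each kept the direction, but the genes were chosen for this difference and their groups did not overlap, so that adds no support. Over these fits the size varied: the brightest Col2a1 probe ran from 4.34-fold to 5.21-fold, the brighter Sox9 probe from 2.02-fold to 2.26-fold and Lpl from 2.84-fold to 5.51-fold.

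**Figure D5:**
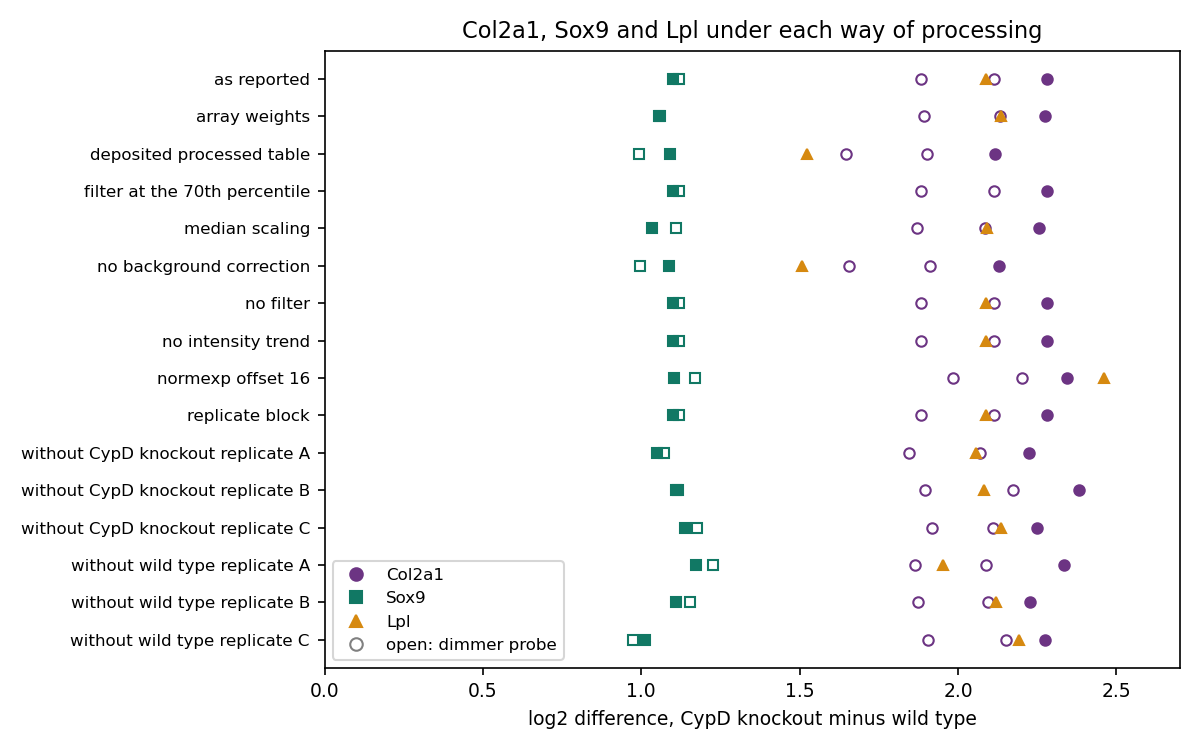
Log2 difference, CypD knockout minus wild type (horizontal axis), of each Col2a1, Sox9 and Lpl probe as reported and under each alternative way of processing or with 1 array left out; open symbols are the dimmer probes of a gene. Sox9 stays between 0.98 and 1.23 by both probes, while Lpl moves between 1.51 and 2.46 with the treatment of background.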

How the data were processed

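RNA of 6 fibroblast samples was hybridised to Illumina arrays, 3 CypD knockout and 3 wild type, grouped by the labels. The authors deposited linear probe intensities, 1 file per array, and a processed table of 12534 probes; per the submitters' processing notes the software was BeadStudio 3.0, and no source used here states further steps. Processed intensities were 0.981 to 1.01 times the quantile-normalized deposited intensities, with column medians from 736 to 741 and no centring of probes; they run in the same direction, and the rule that chose the listed probes is not stated. Every listed probe had a highest value at least 1.20 times its lowest. Of these, 10653 had 1 gene symbol, 5 several and 1876 none, and 10643 matched RefSeq gene identifiers of assembly GRCm38.p6. The deposited files hold no detection values, slides or dates, so batches could not be examined, and the small number of arrays limits precision.

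Intensities were corrected with normexp (offset 50), put on the log2 scale, quantile-normalized and, above the 40th percentile of mean signal (27168 probes), tested with limma 3.58.1 (lmFit, eBayes with intensity trend) in R 4.3.3. Adjusted p-values are two-sided Benjamini-Hochberg values over all probes tested. Named genes were the 3 markers, Ppif and Dlk1, from each list the 4 called genes with the smallest p at most, and the 2 brightest of those not called, and the 4 nearest profiles of each marker; others are named where a count of 5 or fewer needs them or where said so. The neighbour counts were added after the files were read. Members and lists were chosen with earlier results of these data known. Same-letter arrays of the groups deviated together only weakly (correlations 0.101, -0.0899 and 0.0753), so the letters were not used as pairs. The procedure was tested on simulated data. Alternatives changed the background correction, scaling, filter, trend, array weights, block, probe choice or arrays.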

Additional observations from a re-analysis of the deposited data

How the results depend on the processing

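Of 5423 probes changed in all, counts stayed within 1.5 times under each alternative, and ran from 4079 to 5903 when 1 array was left out. Col2a1 and Lpl, but neither Sox9 probe, moved by more than the spread between arrays where background was treated differently. For the brightest Col2a1 probe the log2 difference was 2.12 in the processed table and 2.13 without background correction, against 2.28. For Lpl it was 1.52, 1.51 and, with an offset of 16, 2.46, against 2.09. A filter at the 70th percentile tested fewer genes and left 0 changed cartilage matrix genes, 1 osteoblast marker, 0 muscle markers and 1 neural crest marker. With array weights 1 macrophage marker changed. Median scaling and no filter each left 1 changed neighbour of Sox9. The probe of highest variance reversed Id2, with a log2 difference of -0.75, because its probes disagree. When 1 array was left out, changed members ranged from 2 to 6 for adipogenic regulators, 4 to 6 for lipid storage, 0 to 1 for macrophage markers, 1 to 2 for neural crest markers and 1 to 2 for neighbours of Sox9; other causes were not tested. With the letters as a replicate block the Lpl difference was 2.09 and the probes changed numbered 5273, Sdc4, Lipa and Map2k6 passed (adjusted p = 0.0134, 0.0174 and 0.0466), and no other named call changed. Wild-type Lpl, wild-type Amigo2, knockout Angptl4 and the 2 cartilage matrix genes lie where signal and background are not separated. The same holds, among others, for knockout Mgll, Acta1 and Dcn (mean percentiles 40.8, 41.4 and 42.8) and for wild-type Ebf2 and Tfap2b (50.5 and 52.7). Wild-type D130040H23Rik (6.79) and Hgf (6.89) were dim as well. Over the alternatives Ebf2 ran from 0.74 to 1.31 and Acta1 from -1.01 to -0.50.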
